A study of Danio rerio x Danio aesculapii and Danio rerio x Danio albolineatus and Danio rerio x Danio kyathit with 48 samples.

Results

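The kyathit hybrid is the offspring of a D. rerio (zebrafish) mother and a D. kyathit father, and its skin gave 12 of the 48 libraries of the series, all those whose label names D. kyathit as the father. They are 4 kinds of library, 3 of each: skin cells sorted for iridophores (light-reflecting cells), for melanophores (black cells) or for xanthophores (yellow to orange cells), and unenriched whole skin as the control. The fish were adult hybrids that carried a membrane-bound fluorescent reporter driven by a pigment gene. Iridophores were sorted by pnp4a:mem-mCherry, melanophores by tyrp1b:mem-mCherry, and xanthophores carried aox5:mem-EGFP. Each library is named here by its kind and its replicate number, 3, 4 or 5, which the labels also give as its batch. The design text calls the sorted libraries biological samples but does not say whether each came from its own fish. The p-values therefore set differences against the spread between libraries, part of which may be technical. In the limma tests the estimate of that spread is partly shared across genes.

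In a hybrid, the D. rerio and the kyathit copy of a gene sit in the same nucleus and meet the same regulators. A gene whose copies are read unequally is usually said to differ in cis, that is, in the DNA linked to each copy. If that inequality changes from cell type to cell type, the cis difference may depend in size or direction on the cell type, as with a difference in a cell-type enhancer. In every library the mother was D. rerio, so the species of a copy and the parent it came from cannot be told apart. The measure was the log2 ratio of the paternal (kyathit) over the D. rerio value of a gene, centred on the median gene of its library. Thus 0 is that median, positive values favour the kyathit copy and negative values the D. rerio copy relative to it. The medians taken off lay between -0.022 and 0.172. Because the authors had also scaled each allele column, 0 need not be equal output of the copies. A copy is called favoured below in this relative sense only. The question was whether this ratio depends on the kind of library.

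The sort showed in the reporter genes. The summed value of both copies of pnp4a, a purine nucleoside phosphorylase gene of iridophores, was 14809, 12523 and 9694 in the iridophore libraries and between 369 and 1710 in the melanophore and xanthophore libraries. The melanin synthesis gene tyrp1b stood at 8372, 74289 and 51206 in the melanophore libraries and between 491 and 4020 in the iridophore and xanthophore libraries. The aldehyde oxidase gene aox5 stood at 1385, 1018 and 2381 in the xanthophore libraries and between 109 and 670 in the iridophore and melanophore libraries. The unenriched libraries were not alike: pnp4a was 181 and 215 in unenriched 3 and 4 but 3694 in unenriched 5. In the same order, tyrp1b was 125, 332 and 7217 and aox5 was 160, 213 and 840. The xanthophore libraries had 4.80 to 9.05% of their value in mitochondrially encoded genes, the other 9 libraries 1.36 to 3.56%. The 16 iridophore markers together took 3.05 to 4.65% of the value of an iridophore library and 0.071 to 1.13% of an unenriched one. The 18 melanophore markers took 0.324 to 2.41% of a melanophore library and 0.014 to 0.256% of the others, and the 18 xanthophore markers 0.569 to 1.39% of a xanthophore library and 0.065 to 0.466% of the others. The sorts were enrichments and not pure: the 35 keratinocyte markers took 3.6 to 5.25% of the iridophore libraries and 4.01 to 5.35% of the unenriched ones, and the 29 leukocyte markers 2.08 to 2.28% of the melanophore libraries against 0.302 to 0.927% of the iridophore ones. The 28 dermal fibroblast and scale markers took 0.338 to 1.04% of the iridophore libraries and 2.63 to 4.39% of the unenriched ones, where only the fin fold gene and1 was at 0 in all 3 iridophore libraries. In such bulk libraries, fewer cells of a type and less RNA per cell cannot be told apart.

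The deposited values add up to between 5389121 and 7628639 per library and are scaled by the authors, so the depth was estimated from the scatter between libraries and expressed as molecules. By this estimate the iridophore libraries held 351989 to 389285 molecules, the melanophore libraries 55806 to 159116, the xanthophore libraries 84254 to 132061, unenriched 3 and 4 593197 and 526672, and unenriched 5 76376. These estimates also absorb real spread between libraries. The kyathit copies made up 49.37 to 50.55% of the value of 11 libraries and 53.45% of unenriched 5. The means per kind, 49.81 ± 0.31% in iridophore, 50.09 ± 0.16% in melanophore, 49.93 ± 0.59% in xanthophore and 51.13 ± 2.03% in unenriched libraries (SD, n = 3 each), did not differ beyond their spread (exact permutation test over the libraries, two-sided, p = 0.509545). Without unenriched 4 the exact permutation test gave p = 0.0421429 with the largest gap between kinds at 2.06 percentage points, and without unenriched 5 it gave p = 0.842857 with 0.284. The authors' scaling of each allele column sets much of this balance. The 13 mitochondrially encoded genes, inherited from the mother, had at most 0.00418% of their value on the paternal side and were left out of the tests.

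For most genes no difference in ratio among the kinds was detectable at this depth. Of the 19629 genes in the table, 2595 had enough molecules in all 4 kinds, and the ratio of 35 differed among kinds (limma F test, Benjamini-Hochberg adjusted p under 0.05), which is 1.35% of those tested. At unadjusted p under 0.05 there were 325 (12.5%). The favoured copy was the same in all 4 kinds for 1418 of the 2595 genes (54.6%). The median distance between the highest and the lowest kind was 0.72 on the log2 scale over all genes tested and 2.40 over the 35, whose distances ran from 0.83 to 8.03. In 18 of the 35 the mean ratio lay above 0 in some kind and below 0 in another. The kyathit copy was favoured in all kinds in 8 of the 35 and the D. rerio copy in 9. These counts stand beside the 54.6% of all genes tested that favoured the same copy in all kinds, and the signs themselves were not tested. In 32 of the 33 called genes measured in all 6 libraries concerned, the libraries of the highest and the lowest kind did not overlap, against 31.6% of 1990 genes tested. These genes were called on the same ratios and the kinds were picked by their means. The missing overlap therefore largely follows from the call and is no separate support. The last gene inside the threshold, the interferon regulatory factor gene irf1b, had an adjusted p of 0.0489, and the first outside, the glycolysis regulator gene pfkfb4b, 0.0526.

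**Figure D1:**
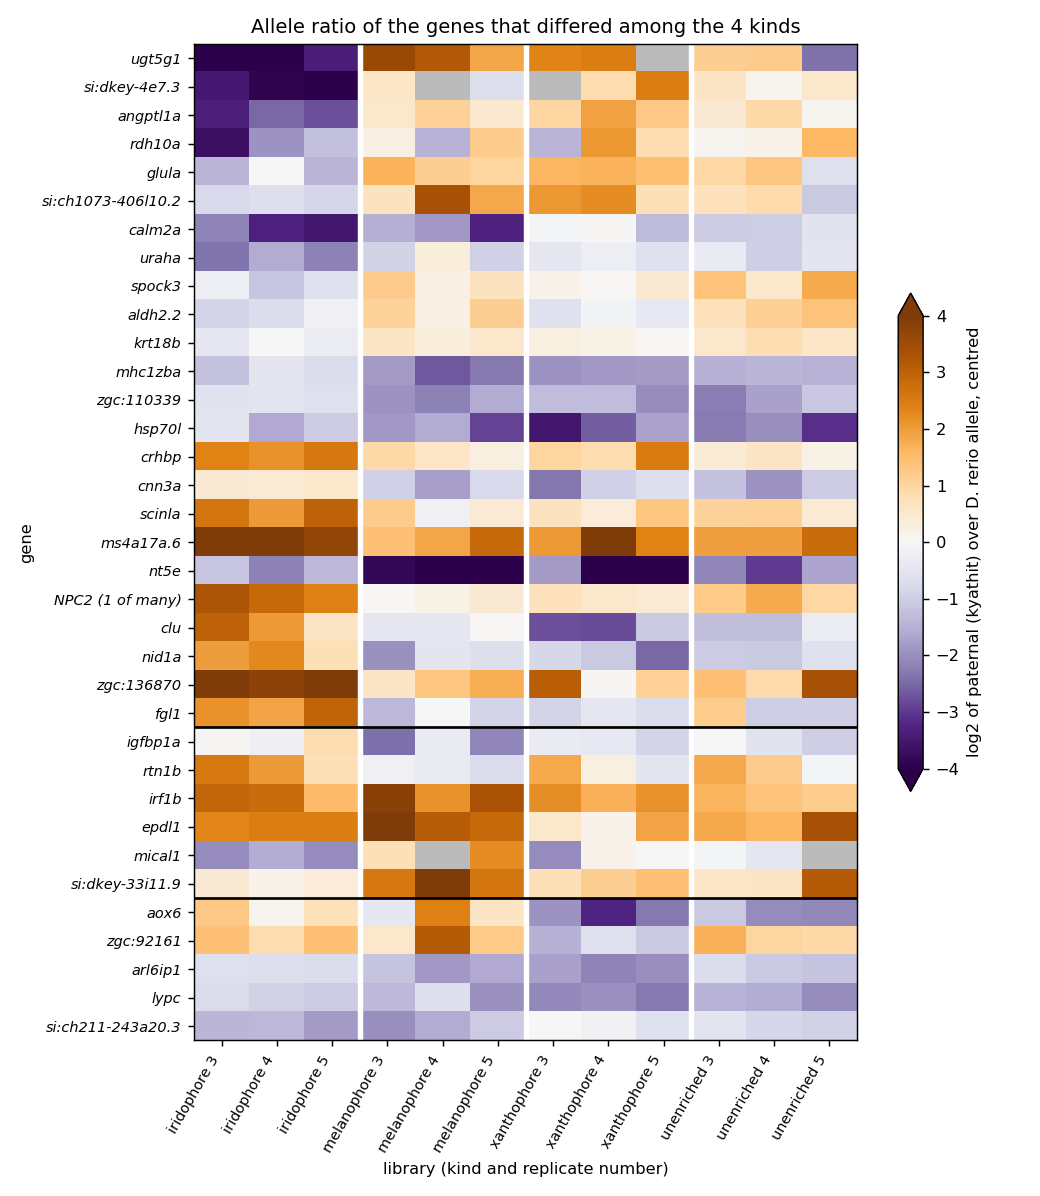
Log2 ratio of the kyathit over the D. rerio copy, centred per library, for the 35 genes called (rows) in the 12 libraries (columns, 3 per kind). Brown favours the kyathit copy, purple the D. rerio copy, the colour scale stops at -4 and 4, and grey marks fewer than 3 molecules. Black lines part the 24 genes whose ratio stood farthest apart in iridophore libraries (top) from the 6 of melanophore and the 5 of xanthophore libraries. In many rows of the top block the iridophore columns differ in colour from most of the other 9. Single libraries of other kinds lie within the iridophore range in some, such as unenriched 5 for glula and xanthophore 5 for crhbp. Unenriched 5 often differs from unenriched 3 and 4.

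The count depends on single libraries and on the weighting. It was 21 without iridophore 3, 22 without xanthophore 4 and 23 without xanthophore 5, and 27 to 40 without any other single library. A block for the replicate number, the batch of the labels, raised it to 54, which hold 34 of the 35. Each batch has 1 library of a kind, so that no test within a batch was possible. With equal weights for shallow and deep libraries 6 remained: angptl1a, clu, ugt5g1, si:dkey-4e7.3, mhc1zba and NPC2 (1 of many).

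Iridophores stood apart most often. The ratio of iridophore libraries was the farthest from the other kinds in 24 of the 35 genes (68.6%), against 554 of all 2595 genes (21.3%), and in 13 of the 24 it was the higher one. By the molecule estimate, the iridophore libraries were the deepest of the sorted ones. That estimate comes from the scatter between libraries, so libraries that are alike come out as deep. Their ratios correlated with a median r of 0.79 across 397 genes, against 0.70 between melanophore and 0.74 between xanthophore libraries, and the part of this in the count was not tested. The summed value of these 24 genes was higher in iridophore than in unenriched libraries in 10, against 44.9% of all genes tested, and highest in iridophores of all kinds in 6, against 18.8%. The lower level of fibroblast and leukocyte markers in the iridophore libraries moves with this contrast, and its part in it was not tested.

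The clearest of them was angptl1a, which encodes a secreted protein of the angiopoietin-like family. Its log2 ratio was -3.34, -2.52 and -2.75 in the iridophore libraries, 0.55, 1.09 and 0.50 in the melanophore, 1.0, 1.91 and 1.26 in the xanthophore and 0.45, 0.92 and 0.09 in the unenriched libraries. The kyathit copy thus gave 11.3% of its value in iridophores and 59.3 to 72.3% in the other kinds, and no iridophore library overlapped with any other. The iridophore ratio was lower than the unenriched ratio by 3.55 ± 0.25 (SE, limma, adjusted p = 3.25e-07; differences come from the fit, which weights deeper libraries more), and the F test gave an adjusted p of 7.2e-07. Its summed value was lower in iridophores as well, 709 to 1019 against 2088 to 2224 in unenriched skin. The gene passed without each single library in turn.

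A pair of other genes moved in the same direction. The glucuronosyltransferase gene ugt5g1, a member of a family of near copies between which reads can be shared, had -5.69, -5.67 and -3.39 in iridophores and 3.59, 3.18 and 1.86 in melanophores. It had 2.37 and 2.47 in xanthophore 3 and 4, too few molecules in xanthophore 5, and 1.14, 1.22 and -2.40 in the unenriched libraries. The kyathit copy gave 2.63% of its value in iridophores and 89.5% in melanophores, the widest gap of all called genes, 8.03 ± 0.73 (SE, limma, adjusted p = 1.94e-05). Unenriched 5 was the unenriched library on the iridophore side of 0. It had raised pnp4a and tyrp1b and the fewest estimated molecules of the unenriched libraries, and the part of either in this ratio was not tested. For si:dkey-4e7.3, a gene with no described role here, the ratio was -3.48, -3.92 and -4.02 in iridophores and between -0.67 and 2.5 in the 7 other libraries with enough molecules (iridophore below unenriched by 4.17 ± 0.41, adjusted p = 3.97e-05, and 0.216 without unenriched 3 and 0.2 without unenriched 4).

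The glutamine synthetase gene glula leaned to the D. rerio copy in iridophores and to the kyathit copy in the other sorted kinds. Its ratio was -1.39, -0.01 and -1.38 in iridophores, 1.68, 1.14 and 1.03 in melanophores, 1.62, 1.66 and 1.4 in xanthophores and 0.95, 1.31 and -0.61 in unenriched skin. Unenriched 5 lay within the range of the iridophore libraries, and the other 8 libraries lay above all of them. The F test gave an adjusted p of 0.00213, and the value against xanthophores was -2.40 ± 0.36 (SE, limma, adjusted p = 0.00351). A quasi-binomial model of the molecules, an alternative added after seeing the data, gave an adjusted p of 0.0652.

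In other called genes the kyathit copy had its highest share in iridophores. The calponin gene cnn3a, whose product binds actin, had 0.44, 0.43 and 0.53 in the 3 iridophore libraries and only negative ratios elsewhere, from -2.31 to -0.63. The favoured copy thus changed from D. rerio to kyathit in iridophores, where the summed value was also highest (3168 to 4159, against 753 to 1751 in the other 9 libraries; iridophore above unenriched by 2.02 ± 0.24, SE, limma, adjusted p = 0.000138). That call was lost without unenriched 3 (0.0691) and unenriched 4 (0.195), while the F test kept its call without each single library. The gelsolin-family gene scinla, whose product severs actin filaments, had 2.60, 2.0 and 2.99 in iridophores and -0.18 to 1.29 in the other 9 libraries. It was called against each of the other kinds, by 1.55 ± 0.24 against unenriched skin (limma, adjusted p = 0.00284). Its call against unenriched skin was lost without unenriched 3 or 4 (0.167 and 0.0667), that against xanthophores without iridophore 3 or 5 or xanthophore 4 (0.0579 to 0.101), and the F test call without iridophore 3 (0.0513). For crhbp, the gene of a protein that binds corticotropin-releasing hormone, the iridophore ratios were 2.39, 2.15 and 2.56, the melanophore ratios 0.91, 0.57 and 0.28 and the unenriched ratios 0.40, 0.61 and 0.22, while xanthophore 5, at 2.52, lay among the iridophore libraries. Its iridophore ratio was above that of unenriched skin by 1.84 ± 0.26 (limma, adjusted p = 0.00156), a call lost without unenriched 3 (0.167) and unenriched 4 (0.0667).

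The extracellular chaperone gene clu (clusterin) spread across all kinds. Its ratio was 2.99, 2.03 and 0.62 in iridophores, -0.45, -0.42 and 0.02 in melanophores, -2.78, -2.81 and -1.07 in xanthophores and -1.26, -1.25 and -0.31 in unenriched skin. The kyathit copy gave 75.1% of the value in iridophores and 16.2% in xanthophores, a distance of 3.94 ± 0.53 (SE, limma, adjusted p = 0.00205), and the libraries of these kinds did not overlap. This pair was lost without xanthophore 4 (0.101). The fibrinogen-like gene fgl1 had 2.13, 1.89 and 2.94 in iridophores against -1.35 to -0.01 in melanophores and -0.90 to -0.45 in xanthophores, and it was called against each of the 3 other kinds (F test, limma, adjusted p = 0.00213). Its value was low in iridophore 3 and 4, 103 and 59, so that iridophore 5, at 1174, weighs most in that mean. In the F test both genes passed without each single library in which they could be tested, and the call of fgl1 between iridophores and unenriched skin was lost without unenriched 4 (0.344).

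**Figure D2:**
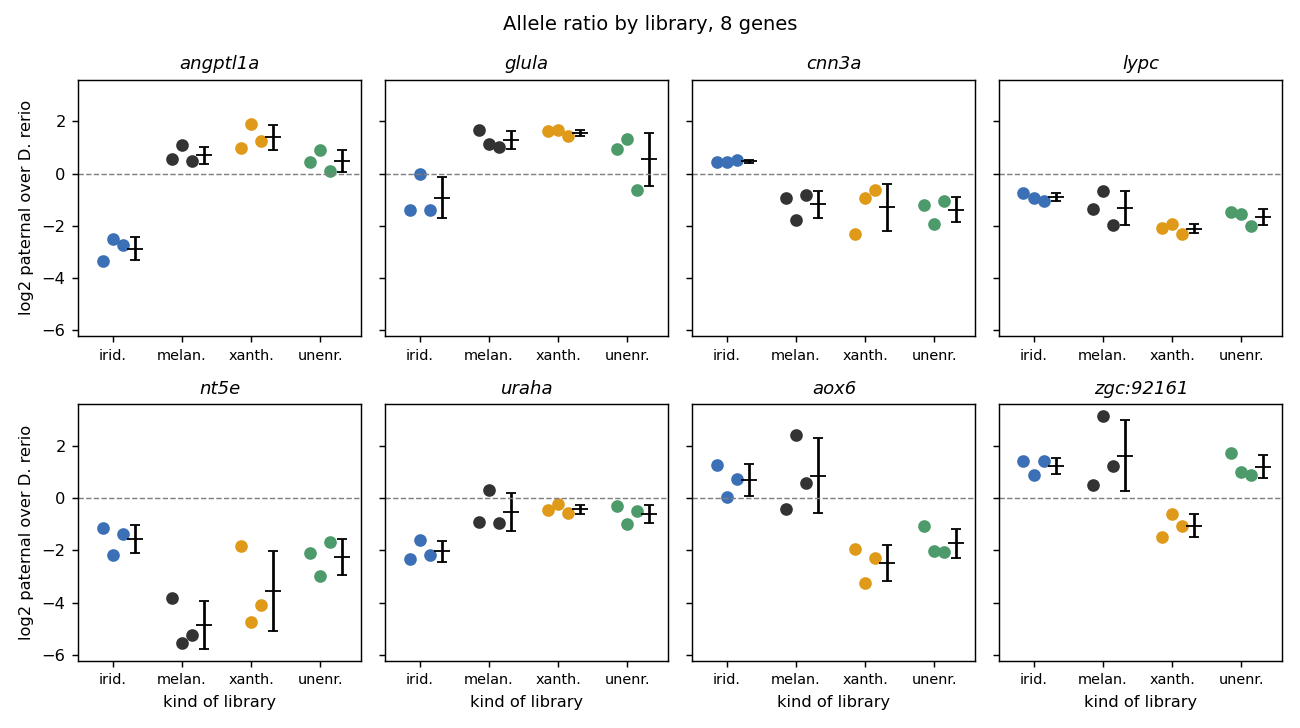
Log2 ratio of the kyathit over the D. rerio copy (y axis, centred per library) of 8 genes in each library, by kind of library (x axis), points for single libraries and black bars for mean and SD. In angptl1a, cnn3a and uraha the iridophore libraries lie apart from the other kinds, in zgc:92161 the xanthophore libraries do, and in aox6 the xanthophore and unenriched libraries lie below most others.

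The remaining iridophore genes named by rule had smaller or less steady differences. The MS4A-family gene ms4a17a.6 favoured the kyathit copy in every library, with 3.71 to 4.64 in iridophores and 1.97 to 2.79 in unenriched skin (adjusted p = 0.00354), but that call was lost without unenriched 3 (0.322) and unenriched 4 (0.226) and its F test reached 0.0618, 0.058 and 0.0537 without iridophore 3, unenriched 3 and unenriched 4. In the quasi-binomial model ms4a17a.6 had an adjusted p of 0.0982. The calmodulin gene calm2a had -3.51 to -2.15 in iridophores and -1.34 to 0.04 in xanthophores (adjusted p = 0.0259, lost without iridophore 4 or 5 or xanthophore 3 or 4, 0.0667 to 0.209), with adjusted p of 0.0987, 0.0749 and 0.0648 in the F test without iridophore 4, iridophore 5 and xanthophore 4. The quasi-binomial model gave calm2a an adjusted p of 0.0544. Calmodulin genes encode near-identical proteins, so the reads of calm2a may be shared with copies. The matrix proteoglycan gene spock3 had -1.15 to -0.25 in iridophores and 0.50 to 1.79 in unenriched skin (adjusted p = 0.00435, and 0.402 and 0.0606 without unenriched 3 and 4), and the F test gave 0.0781 without iridophore 4 and 0.0829 without unenriched 3. The heat shock gene hsp70l, which has near copies, favoured the D. rerio copy in all libraries and least in iridophores, -1.61 to -0.51 against -3.10 to -2.0 in unenriched skin (adjusted p = 0.0332, lost without iridophore 3 or 5 or any unenriched library, 0.0639 to 0.525). Its F test lost its call without iridophore 3 or 5, xanthophore 3 or any unenriched library (adjusted p 0.0635 to 0.164).

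Of the called genes without a described role, si:ch1073-406l10.2 had -0.85 to -0.63 in iridophores and 0.78 to 2.24 in xanthophores (limma, adjusted p = 0.00891, and 0.201 without xanthophore 4). It lost its F test call without iridophore 3, iridophore 5 and xanthophore 4, at adjusted p of 0.0633, 0.0856 and 0.0709. The gene zgc:136870 was almost wholly kyathit in iridophores (98.3% of its value, 3.77 to 4.90 in ratio) and less so in melanophores (71.1%, adjusted p = 0.0107), and without iridophore 5 this pair gave 0.063 and the F test 0.0949. Its mean summed value in iridophores was only 216, so the 0.5 molecules added to each copy limit how high the ratio can go. The F test call was also lost with a fixed 20 added to the deposited values. The quasi-binomial model gave an adjusted p of 0.157. A further 3 genes could be tested in pairs of kinds only. The interferon-induced membrane gene ifitm1 had 3.91, 5.75 and 4.98 in iridophores, -2.96, -0.01 and -2.07 in xanthophores and -0.40, 0.21 and 0.57 in unenriched skin. That is 96.7% kyathit in iridophores and 54.0% in unenriched skin at like summed values, 887 to 1491 and 1225 to 1579. The difference of 4.96 ± 0.43 (SE, limma, adjusted p = 1.94e-05) had an adjusted p of 0.0697 without unenriched 3, and the gene has near copies. The flavoprotein gene mical3b had 2.30 to 4.99 in iridophores and -2.64 to 0.11 in xanthophores (adjusted p = 0.0273, and 0.0578 with the replicate block), and si:ch211-161h7.5 had -0.49 to -0.03 and 1.91 to 3.53 (adjusted p = 0.0259). The call of mical3b was lost without iridophore 3, iridophore 4 or xanthophore 3 (adjusted p 0.0651 to 0.0693). That of si:ch211-161h7.5 was lost without iridophore 3, 4 or 5 or xanthophore 3 or 4 (adjusted p 0.0567 to 0.163).

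**Figure D3:**
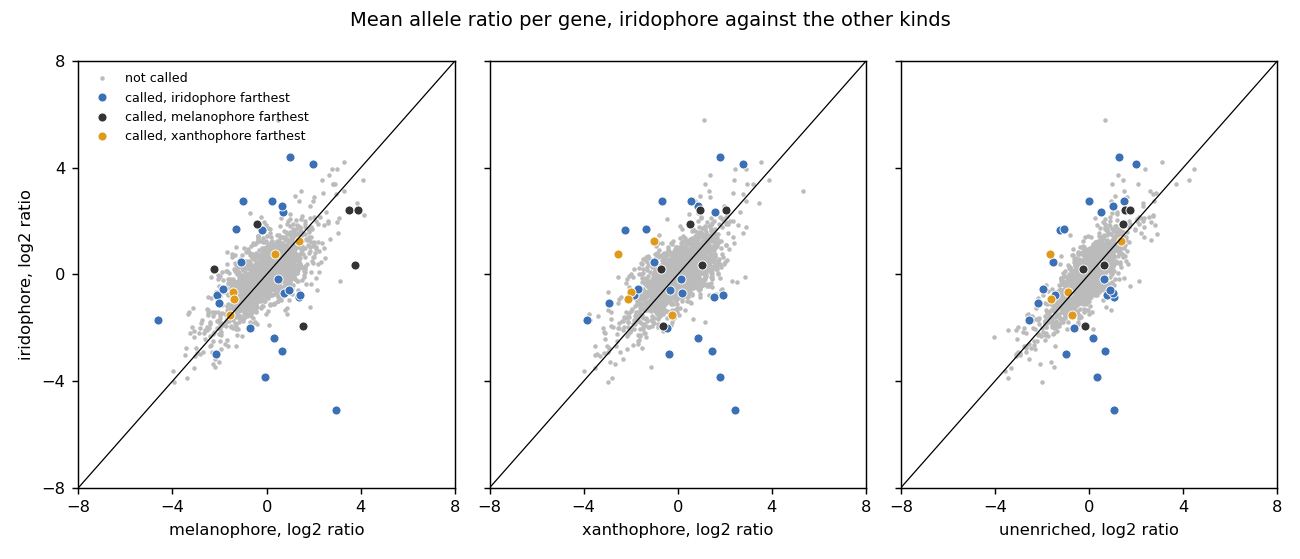
Mean log2 ratio per gene in iridophore libraries (y axis) against melanophore, xanthophore and unenriched libraries (x axes), for the 2595 genes tested, with the line of equality. Grey points were not called, and coloured points are the 35 called genes by the kind that stood farthest apart. Most genes lie along the line, and called genes lie on either side of it, 13 of the 24 iridophore genes above the other kinds.

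Pigment cell genes gave a handful of called genes. Among 9 tested iridophore markers 1 passed (5 at unadjusted p under 0.05), among 4 melanophore markers 0 (1), among 11 xanthophore markers 2 (4), among 12 purine synthesis and breakdown genes 1 (5), among 8 pteridine and carotenoid genes 1 (3), among 8 pigment organelle genes 0 (0) and among 5 stripe pattern genes 0 (2). Over all genes tested the shares were 1.35% and, unadjusted, 12.5%. By the quasi-binomial model the lists with 0 had 0 as well, and the iridophore and purine lists then had 0. The median distance between the highest and the lowest kind was 0.94, 0.67, 1.09, 1.09, 1.14, 1.04 and 0.80 for these lists in the same order, against 0.72 over all genes tested. Several lists share genes. Of the 26 purine genes present, 12 had enough molecules in all 4 kinds, and of the 18 melanophore markers 4, so the untested members are not covered by these counts.

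The called iridophore marker was lypc, a Ly6-family surface protein gene. It favoured the D. rerio copy in all 12 libraries, least in iridophores (-0.74, -0.93 and -1.03) and most in xanthophores (-2.07, -1.94 and -2.31), with -1.37, -0.65 and -1.96 in melanophores and -1.46, -1.54 and -2.01 in unenriched skin. Its value was 46682 to 72400 in iridophores and 1285 to 3635 in xanthophores, and the libraries of these kinds did not overlap in ratio. The F test gave an adjusted p of 0.0302 with limma and 0.0962 with the quasi-binomial model. The call was lost without iridophore 3 or 4, without xanthophore 3, 4 or 5 and without unenriched 5 (adjusted p 0.0603 to 0.0854).

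The called gene of the purine list was nt5e, which encodes the surface enzyme that turns AMP into adenosine. Its ratio was -1.13, -2.16 and -1.35 in iridophores, -3.83, -5.54 and -5.24 in melanophores, -1.81, -4.76 and -4.08 in xanthophores and -2.12, -2.99 and -1.66 in unenriched skin. The kyathit copy gave 21.5% of its value in iridophores and 2.77% in melanophores, where the gene was most abundant (4165 to 8696), a distance of 2.89 ± 0.52 (SE, limma, adjusted p = 0.012). Its F test (adjusted p = 0.0317) was lost without iridophore 3 or 5, xanthophore 5 or unenriched 5 (0.0624 to 0.0943) and in the quasi-binomial model (0.0561). The xanthophore marker uraha, whose product acts in the breakdown of urate, had -2.35, -1.59 and -2.17 in iridophores, -0.46, -0.24 and -0.57 in xanthophores and -0.99 to 0.32 in the other 6 libraries, so no iridophore library overlapped with another kind. The iridophore ratio lay 1.56 ± 0.33 below that of xanthophores (SE, limma, adjusted p = 0.0319, and 0.0502 with the replicate block), a call lost without iridophore 3 or 5, any xanthophore library or unenriched 5 (0.0572 to 0.163). Its F test (adjusted p = 0.0302) was lost without iridophore 3 or 5, any xanthophore library, or unenriched 3 or 5 (0.0516 to 0.128), and gave 0.0693 in the quasi-binomial model.

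The gene aox6, a close copy of aox5 and a xanthophore marker, had 1.28, 0.07 and 0.74 in iridophores, -0.42, 2.41 and 0.60 in melanophores, -1.93, -3.26 and -2.30 in xanthophores and -1.08, -2.03 and -2.08 in unenriched skin. The kyathit copy gave 15.4% of its value in xanthophores, where the gene was most abundant (2867 to 5049), and 63.5% in iridophores, where it was scarce (103 to 205). The distance was 3.32 ± 0.53 (SE, limma, adjusted p = 0.0048, and 0.0666 without iridophore 3), and the F test (0.0051) passed without each single library. The reporter gene aox5 had -0.66, -1.24 and -0.75 in xanthophores and between -2.90 and 0.16 in the other 9 libraries, with all kinds overlapping (adjusted p = 0.970). Reads of stretches that these copies share may be uncertain. The carotenoid-cleaving oxygenase gene bco2b and the mitochondrial folate gene mthfd2 passed between pairs of kinds only and were chosen after their values were seen. For bco2b the ratio was -2.29, -4.33 and -3.58 in iridophores, 0.26, 0.18 and -0.98 in xanthophores and -0.20, -0.32 and -0.68 in unenriched skin (iridophore below xanthophore by 3.10 ± 0.54, adjusted p = 0.00966). That call was lost without iridophore 4 (0.0794). Its call against unenriched skin (-3.21 ± 0.61, 0.0185) was lost without iridophore 4 and unenriched 3 or 4 (0.102 to 0.588). For mthfd2 it was -0.93, -1.29 and -1.38 in iridophores and 0.24, -0.04 and -0.79 in unenriched skin (adjusted p = 0.0339), lost without any iridophore library, without xanthophore 4 and without unenriched 3 or 4 (0.0513 to 0.662). The difference was -1.24 ± 0.26, and -0.85 and -0.88 without unenriched 3 and 4.

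The other reporter genes did not pass the F test. For pnp4a the ratio was 0.67, 0.74 and 0.97 in iridophores, 1.35, 1.83 and 0.16 in melanophores, -0.24, -0.44 and 1.55 in xanthophores and -0.14, -0.81 and 0.04 in unenriched skin (adjusted p = 0.288). For tyrp1b it was -0.12, 0.60 and 0.14 in melanophores and between -0.95 and 1.59 in the other 9 libraries (adjusted p = 0.951). For pnp4a xanthophore 5 lay among the melanophore libraries, and for tyrp1b all kinds overlapped. Whether the transgenes add reads to these genes is not given in the sources used here.

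Melanophore libraries stood farthest apart in 6 of the 35 called genes, against 830 of all 2595 genes tested. The ependymin-like gene epdl1 had 4.38, 3.11 and 2.84 in melanophores, 0.53, 0.15 and 1.90 in xanthophores and 2.32 to 2.49 in iridophores, with 92.2% of its value from the kyathit copy in melanophores and 64.2% in xanthophores. The distance of 2.91 ± 0.49 (SE, limma, adjusted p = 0.0234) passed between these kinds but not without melanophore 3 or 5 or xanthophore 3 or 4 (0.0593 to 0.218), and the F test gave 0.0648 without melanophore 3. The gene si:dkey-33i11.9, without a described role here, had 2.59, 6.0 and 2.62 in melanophores against 0.18 to 0.46 in iridophores (limma, adjusted p = 0.00583), and unenriched 5, at 3.13, lay among the melanophore libraries. Its distance fell from 3.40 to 2.26 without melanophore 4, with an adjusted F test p of 0.0154. The insulin-like growth factor binding gene igfbp1a leaned to the D. rerio copy in melanophores, -2.44, -0.33 and -2.12, and stood at 0.03, -0.20 and 0.85 in iridophores (adjusted p = 0.00942, and 0.585 and 0.163 without melanophore 3 and 5). Melanophore 4 overlapped with the xanthophore and unenriched libraries. The F test (0.0235) was lost without iridophore 3, melanophore 3 or 5, xanthophore 5 or unenriched 5 (0.0513 to 0.447), without melanophore 3 at a distance of 1.53 instead of 2.44, and in the quasi-binomial model (0.149).

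The reticulon gene rtn1b, whose product shapes the endoplasmic reticulum, had -0.16, -0.34 and -0.69 in melanophores and 2.55, 2.0 and 0.80 in iridophores (limma, adjusted p = 0.0114). Its F test (0.0317) was lost without iridophore 3 or 4, any melanophore library, xanthophore 4 or 5 or unenriched 5 (0.0502 to 0.0987). For irf1b, at the edge of the threshold, the ratio was 3.82, 2.13 and 3.32 in melanophores and 1.64, 1.37 and 1.17 in unenriched skin. It lost its call without each single library except iridophore 5 and melanophore 4 (0.0542 to 0.345), with a distance of 1.27 instead of 1.97 without melanophore 3. In the quasi-binomial model irf1b had an adjusted p of 0.0982. The granulin gene grn2, a leukocyte marker with near copies, was tested between pairs only and had 3.25, 2.81 and 3.74 in melanophores and -1.67, 0.49 and -0.79 in unenriched skin. The kyathit copy gave 92.3% and 37.6% of its value there (difference 4.66 ± 0.54, SE, limma, adjusted p = 0.00186), and the call was lost without melanophore 5 (0.0711) and without unenriched 3 (0.192). Leukocyte markers as a list took 2.08 to 2.28% of the melanophore libraries, 0.493 to 2.82% of the xanthophore and 1.30 to 1.41% of the unenriched ones, and their part in the result of grn2 was not tested.

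Xanthophore libraries stood farthest apart in 5 of the 35 called genes, against 821 of all 2595 genes tested. The gene zgc:92161, without a described role here, favoured the D. rerio copy in xanthophores, at -1.48, -0.60 and -1.08, and the kyathit copy in every other library, from 0.53 to 3.15. No xanthophore library overlapped with the others, and its value was highest there (1983 to 2312 against 565 to 1734). The difference from unenriched skin was -2.34 ± 0.41 (SE, limma, adjusted p = 0.0392, and 0.0548 with the replicate block), and it kept its call only without melanophore 3 or 4 among the single libraries left out (0.0545 to 0.993 without the other 10). The F test (0.0102) was lost without xanthophore 3 (0.0584) and xanthophore 5 (0.074). The gene si:ch211-132g1.6, tested between pairs only, had 2.63, 5.46 and 3.39 in xanthophores and 0.23, 1.17 and 0.28 in unenriched skin (3.78 ± 0.58, adjusted p = 0.0237). It was lost without xanthophore 4, at a difference of 2.17 and 0.439, and without unenriched 5 (0.0868).

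Another 10 called genes fell outside the rule for naming and are given here after their values were seen. With the adjusted p of the limma F test, they were the basement membrane gene nid1a (0.0056), the MHC class I gene mhc1zba (0.00723), zgc:110339 (0.00806), the lysosomal cholesterol gene NPC2 (1 of many) (0.00922), the keratin gene krt18b (0.0102), the flavoprotein gene mical1 (0.0157), the aldehyde dehydrogenase gene aldh2.2 (0.0193), the endoplasmic reticulum gene arl6ip1 (0.0193), the retinol dehydrogenase gene rdh10a (0.0193) and si:ch211-243a20.3 (0.0329, and 0.0506 with the replicate block). For mhc1zba the ratio was -1.91 to -1.82 in xanthophores, -1.49 to -1.38 in unenriched skin, -2.68 to -1.83 in melanophores and -1.19 to -0.49 in iridophores. For rdh10a the iridophore and xanthophore libraries, its lowest and highest kinds, overlapped, at mean ratios of -2.27 ± 1.25 and 0.50 ± 1.78 (SD, n = 3 each). It was the exception among the called genes whose extremes could be compared. MHC class I genes and aldh2.2 have near copies. Without iridophore 3, nid1a, zgc:110339, mical1, aldh2.2, arl6ip1, rdh10a and si:ch211-243a20.3 lost the call (0.0513 to 0.0876). Losses also followed without iridophore 5 (mical1, 0.0611), without iridophore 4 (aldh2.2, 0.0566), without unenriched 3 or 4 (aldh2.2 and rdh10a, 0.0983 to 0.161) and without xanthophore 4 or 5 (arl6ip1, 0.088 and 0.0786). For si:ch211-243a20.3 the call remained without iridophore 4, melanophore 3 or melanophore 5 and was lost without each of the other 9 (0.0547 to 0.117). The quasi-binomial model gave this gene an adjusted p of 0.0537.

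Counts in housekeeping and skin gene groups are read against the 1.35% called over all genes tested, and a count of 0 or 1 in lists of this size is no result about them. With limma, 0 of 77 cytosolic ribosomal protein genes passed (0 at unadjusted p under 0.05), 0 of 76 nuclear respiratory chain genes (0), 0 of 41 proteasome genes (2), 0 of 11 vacuolar ATPase genes (0), 0 of 11 collagen genes (1), 0 of 21 solute carrier genes (2) and 0 of 23 actin genes (0). Markers of other cells gave 0 of 18 keratinocyte (3), 0 of 16 dermal fibroblast and scale (4), 0 of 13 leukocyte (4), 0 of 3 glia and neuron (1) and 0 of 1 muscle genes (0), and no erythrocyte, endothelial or mural gene could be tested. The quasi-binomial model gave 0 in each of these lists too. With limma, antigen presentation genes had 1 of 10 (mhc1zba; 4 at unadjusted p under 0.05) and keratins 1 of 11 (krt18b; 2). Immediate early and heat shock genes had 1 of 38 (hsp70l; 11). The quasi-binomial model called 1, 1 and 2 in these 3 lists. Over all genes tested 12.5% had an unadjusted p under 0.05 with limma, and no list was tested against that share. The median distance between the highest and the lowest kind was 0.36 in ribosomal protein genes and 0.36 in actin genes, against 0.72 over all genes tested, and these medians include counting error, which is smaller for abundant genes.

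The pairs of kinds differed mainly where iridophores took part. Between iridophore and unenriched libraries 46 of 6895 genes passed (0.667%), 23 in each direction (0.334%). Between iridophores and melanophores it was 23 of 3026 (0.76%), 14 of them with the higher ratio in iridophores (0.463%) and 9 in melanophores (0.297%). Between iridophores and xanthophores it was 30 of 3359 (0.893%), 17 with the higher ratio in iridophores (0.506%) and 13 in xanthophores (0.387%). Melanophores against xanthophores gave 2 of 2608 (0.0767%), epdl1 and grn2, melanophores against unenriched skin 3 of 3164 (0.0948%) and xanthophores against unenriched skin 2 of 3525 (0.0567%), 1 in each direction (0.0284%). At unadjusted p under 0.05 the counts were 643, 301, 304, 190, 240 and 222 in the same order. The comparisons with unenriched skin share its 3 libraries, and those with iridophores share the iridophore libraries.

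**Figure D4:**
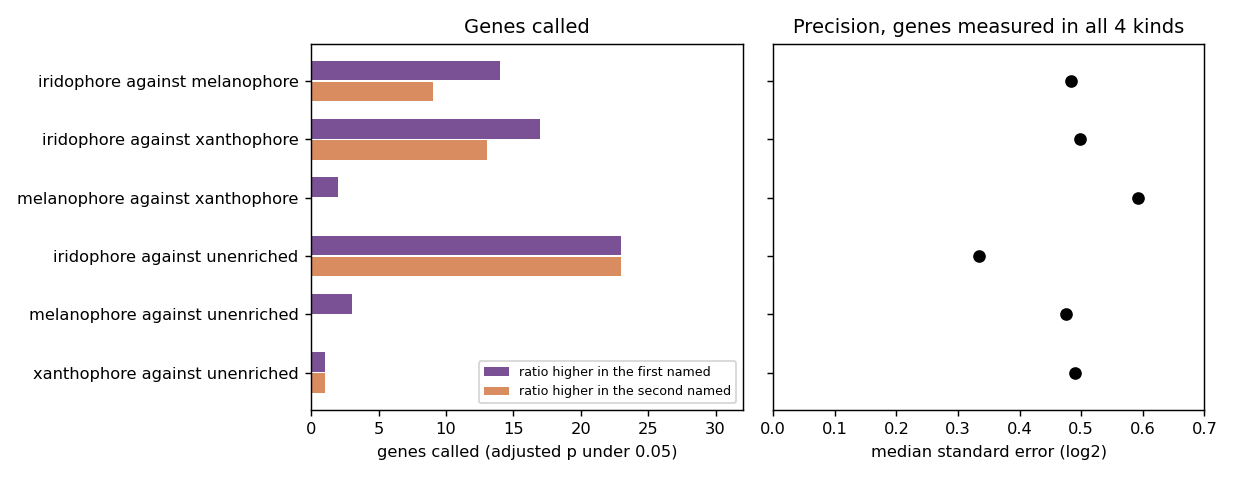
Genes called between each pair of kinds (left, by the kind with the higher ratio) and the median standard error of the difference (right, log2 scale) over the genes that also met the F test's filter. The 3 pairs with iridophores gave 23 to 46 called genes and the others 2 or 3, and the standard error was smallest, 0.33, for iridophore against unenriched and largest, 0.59, for melanophore against xanthophore.

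Precision differed between the pairs. On the genes that also met the filter of the F test, the median standard error of a difference was 0.33 between iridophore and unenriched libraries, 0.48 and 0.50 for iridophores against melanophores and xanthophores, 0.48 and 0.49 for melanophores and xanthophores against unenriched skin, and 0.59 between melanophores and xanthophores. The pairs of iridophores with melanophores and of melanophores with unenriched skin had like standard errors on these genes and gave 22 and 2 called genes. Which share of the calls follows from depth was not tested. With the replicate block the counts were 73 for iridophore against unenriched, 45 for iridophore against melanophore, 6 for melanophore against unenriched and 1 for xanthophore against unenriched. For iridophore against unenriched, 4 genes were called without unenriched 3 and 5 without unenriched 4, with 2247 and 2260 genes tested. For iridophore against xanthophore the count was 15 without iridophore 3, 18 without iridophore 4, 19 without iridophore 5 and 7 without xanthophore 4, and for iridophore against melanophore 9 without melanophore 3. Melanophore against xanthophore gave 0 without melanophore 5 or xanthophore 3 and 1 without xanthophore 4 or 5. Melanophore against unenriched gave 0 without unenriched 3, 1 without melanophore 5 or unenriched 4, and 5 without iridophore 5. Xanthophore against unenriched gave 0 without xanthophore 4 or any unenriched library and 1 without any iridophore library, melanophore 5 or xanthophore 3.

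The other 3 hybrids of the series, with fathers D. aesculapii, D. albolineatus and D. nigrofasciatus, have the same 4 kinds of library and were tested alike. The same F test called 27 of 1246 genes (2.17%), 85 of 1989 (4.27%) and 15 of 1776 (0.845%) there. Among the 35 kyathit genes, the contrast between kyathit's highest and lowest kind had the same sign in 14 of 22 tested in aesculapii, 16 of 24 in albolineatus and 17 of 25 in nigrofasciatus (63.6, 66.7 and 68%). Over all genes tested in both hybrids the shares were 53.0, 55.5 and 54.3%. Of the 22, 24 and 25 genes, 5, 7 and 4 also passed the F test of that hybrid, which does not compare the pattern. Of the 17 genes tested in all 3, 6 had the kyathit sign in each: angptl1a, glula, clu, zgc:110339, arl6ip1 and hsp70l. This counts signs only, and the share over all genes tested in all 3 is not given here. In the F test (limma) of the other hybrids, zgc:110339 (adjusted p 0.0528, 0.450 and 0.720) and hsp70l (0.636, 0.762 and 0.368) passed in none.

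The gene glula passed the F test in all 4 hybrids. Its ratio was higher in xanthophores than in iridophores by 2.40 in kyathit, 2.70 in aesculapii, 3.80 in albolineatus and 3.25 in nigrofasciatus (F test, limma, adjusted p 0.00213, 0.000373, 1.5e-06 and 0.0047). The test of whether kyathit differs from the mean of the others did not pass (interaction F test, limma, adjusted p = 0.522). The gene angptl1a had 4.32 in kyathit, 2.74 in aesculapii, 3.10 in nigrofasciatus and 0.17 in albolineatus. Its F test passed in aesculapii and albolineatus (limma, adjusted p 0.000213 and 0.00569) but not in nigrofasciatus (0.0672). In albolineatus the unenriched ratio stood apart, 0.93 against -0.46, -0.43 and -0.29 in iridophores, melanophores and xanthophores.

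That interaction F test, over all 48 libraries, passed for 26 of 991 genes (2.62%). Of the 17 called kyathit genes it could test, 8 passed: zgc:92161, cnn3a, angptl1a, igfbp1a, uraha, lypc, crhbp and krt18b, the last with an adjusted p of 0.0699 under the replicate block. With equal weights only zgc:92161 of these passed (0.0263). For zgc:92161 the contrast of 2.37 in kyathit, melanophore against xanthophore, stood beside 0.25, -0.24 and -0.10 in aesculapii, albolineatus and nigrofasciatus. The interaction F test compares the pattern over all kinds, not this contrast alone (adjusted p = 0.000209). In aesculapii iridophores stood apart, at -2.50 against -0.36, -0.51 and 0.13 in melanophores, xanthophores and unenriched skin. The gene's F test passed within aesculapii (limma, adjusted p = 0.0130) but not within albolineatus or nigrofasciatus (0.620 and 0.435). The part of the aesculapii pattern in the interaction result was not tested. For cnn3a the contrast was 2.02, iridophore against unenriched, beside 0.40, 0.15 and -0.22 (0.000716). The cnn3a ratio of iridophores lay above melanophores and xanthophores in the other hybrids too. It was 0.17 against -1.01 and -1.62 in aesculapii, 0.07 against -0.86 and -1.06 in albolineatus, and -0.35 against -0.75 and -1.51 in nigrofasciatus. The F test of cnn3a passed in none of these hybrids, in the same order (limma, adjusted p 0.114, 0.148 and 0.687). The unenriched ratio was -1.45 in kyathit and -0.25, -0.08 and -0.12 in aesculapii, albolineatus and nigrofasciatus. For uraha the contrast had the opposite sign in the other hybrids, -1.40, -0.65 and -0.40 against 1.56 (0.0129). The F test within each of those hybrids did not pass for uraha (limma, adjusted p 0.455, 0.586 and 0.862). The kyathit contrasts were chosen as the widest ones, so that their size alone, beside the others, is no result. The 17 genes were called in the same kyathit libraries that enter the interaction test, so 8 of 17 cannot be read against the 2.62%.

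**Figure D5:**
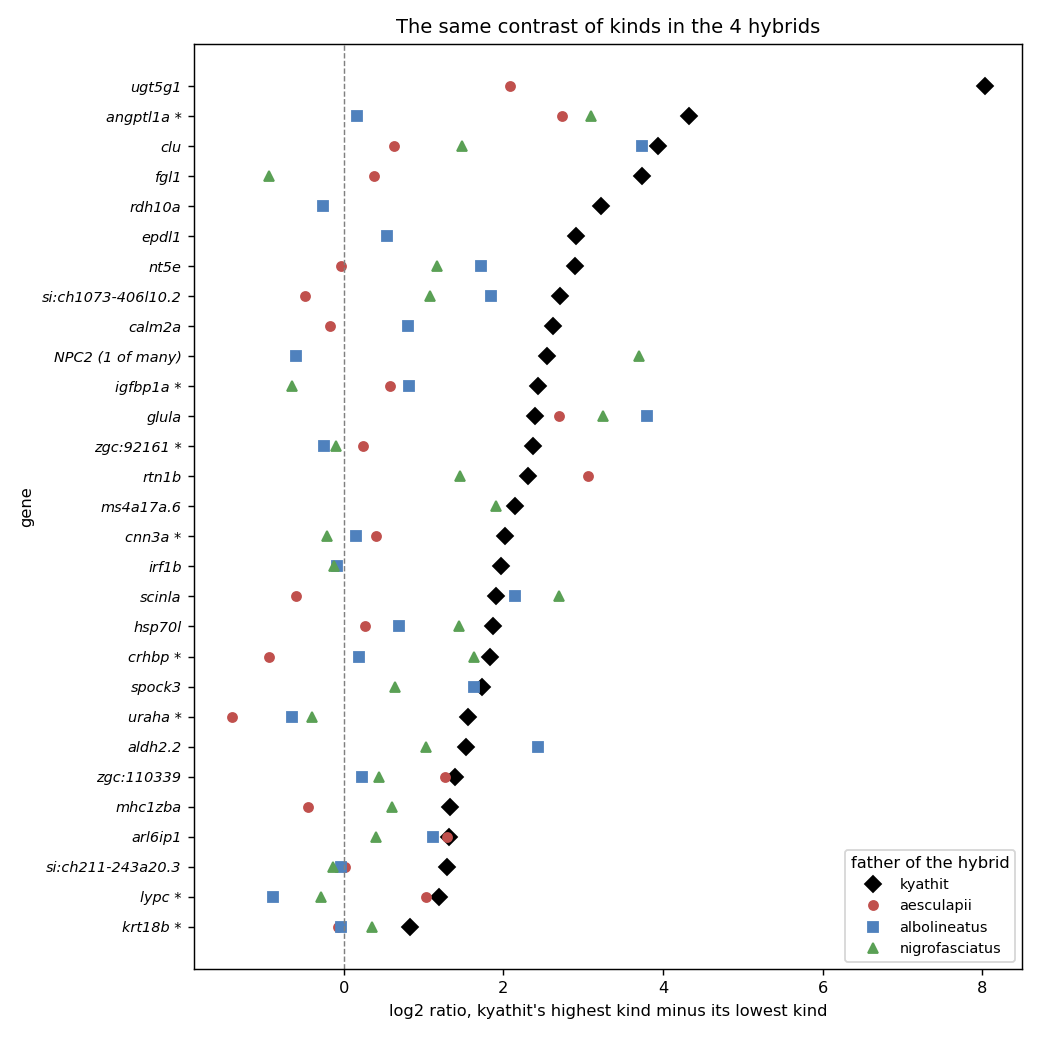
Difference in log2 ratio between the kinds that were highest and lowest in kyathit (x axis) for the called genes tested in at least 1 other hybrid (rows), in kyathit (diamonds) and the other hybrids. The kyathit values are positive because the kinds were chosen on them. Stars mark the 8 genes whose pattern differed from the mean of the other hybrids in the interaction F test, and glula lies between 2.40 and 3.80 in all 4.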

How the data were processed

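Per the labels, polyA RNA was made into SMART-seq2 and paired-end Nextera libraries. The deposited unit is a score: whole numbers per allele and gene that, judged from the values, the authors scaled by a size factor per column and rounded, since recomputed size factors were 0.9970 to 1.0029. The submitters' processing notes name GRCz11, featureCounts and DESeq2 1.44.0, without roles. How reads were assigned to alleles is not given in the sources used here. The table holds 19629 genes.

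The value of a molecule per library was estimated from the scatter of allele shares between libraries of a group, for genes with values of 300 to 3000. Paternal and maternal molecules each had 0.5 added, and the log2 of their ratio was centred on the library's median, and ratios from under 3 molecules were left out. Genes needed 5 molecules in 2 of 3 libraries of each kind compared, 10 molecules of each allele and 5% from the rarer allele. Ratios were fitted with limma 3.58.1 in R 4.3.3, with precision weights per library (lowess span 0.3), trend and robust settings. The F test compared residual sums with and without kind. P-values were two-sided and Benjamini-Hochberg adjusted within each comparison over all genes tested, with threshold 0.05. Scores are not counts, so the main tests used no count model. The quasi-binomial model of the estimated molecules was run only as an alternative.

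Tested on simulated data, an earlier F test gave too many false calls. The molecule estimate and the F test were revised on simulated data after real results of the earlier version had been seen. Members and lists were chosen with earlier results of these data known. Named were the 3 reporter genes, the 20 largest non-overlapping differences past the F test with 10 or more molecules per kind, called pigment list members, and the 2 largest non-overlapping differences per pair and direction. Deviations of libraries with the same replicate number, which the labels give as batch, correlated with a median r of 0.064 (-0.082 to 0.188, 18 pairs), against -0.046 for different numbers (36 pairs). Their block is therefore given where it changes a call.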

Additional observations from a re-analysis of the deposited data

Results flagged for a closer look

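The pattern across the 4 kinds of library differed between kyathit and the mean of the other 3 hybrids in 8 of the called genes (interaction F test, limma, 991 genes tested, 26 called). The called genes were picked in the same kyathit libraries, so that their number among the 26 is no result of its own. The adjusted p was 0.000209 for zgc:92161, 0.000716 for cnn3a, 0.00931 for angptl1a, 0.0127 for igfbp1a, 0.0129 for uraha, 0.0190 for lypc, 0.0193 for crhbp and 0.0471 for krt18b. The contrast between kyathit's highest and lowest kind was 2.44 for igfbp1a in kyathit and 0.58, 0.82 and -0.65 in aesculapii, albolineatus and nigrofasciatus. It was 1.19 for lypc against 1.03, -0.88 and -0.29, 1.84 for crhbp against -0.94, 0.20 and 1.63, and 0.83 for krt18b against -0.07, -0.03 and 0.36. The crhbp pattern was not particular to kyathit, as its F test also passed within nigrofasciatus (limma, adjusted p = 0.0298). Iridophores stood highest there, at 1.41 against 0.09, -1.16 and -0.17 in melanophores, xanthophores and unenriched skin. Within aesculapii the F test of igfbp1a passed as well (limma, adjusted p = 0.0114). With the replicate block 19 of the 26 genes passed, krt18b not among them (0.0699). With a minimum of 10 molecules 449 genes could be tested and 12 of the 26 passed, among them angptl1a and krt18b, while the other 6 of these genes could not be tested. With equal weights for all libraries, 1 of the 991 genes passed this test, zgc:92161 (0.0263).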

How the results depend on the processing

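No direction reversed in any alternative run. The batch block gave 54 genes in the F test, 45 in iridophore against melanophore, 73 in iridophore against unenriched, 6 in melanophore against unenriched and 1 in xanthophore against unenriched. Among genes the text names, the replicate block ended the F test call of si:ch211-243a20.3 (0.0506) and the pair calls of mical3b (0.0578), uraha (0.0502), zgc:92161 (0.0548) and, for iridophore against unenriched, clu (0.0941), and the interaction call of krt18b (0.0699), and no other F test, pair or interaction call printed for a named gene. It kept 19 of the 26 interaction calls among its 21. Equal weights gave 6 in the F test, 8, 11 and 3 for iridophores against melanophores, xanthophores and unenriched skin, 0 in each of the other pairs and 1 in the interaction test, so calls rest on weighting deep libraries more. A minimum of 10 molecules left 1266 genes and 23 calls in the F test, 1 in melanophore against xanthophore and 0 in xanthophore against unenriched. That last pair had 1 call with a pseudocount of 1 or 0.25 molecule, a fixed pseudocount of 20, or without the trend and robust settings. With single libraries or all of a replicate number left out, calls ran from 5 to 40 in the F test (from 21 with single libraries alone, from 5 to 7 with a replicate number left out), 5 to 31 (9 to 31 and 5 to 12 in the same order), 3 to 29 and 4 to 50 for iridophores against melanophores, xanthophores and unenriched skin, 0 to 3 in melanophore against xanthophore, 0 to 5 in melanophore against unenriched and 0 to 2 in xanthophore against unenriched. Fewer genes could be tested there. The largest gap in paternal share ran from 0.284 to 2.06 percentage points and passed without unenriched 4 (exact permutation p = 0.0421429). The quasi-binomial model, added after seeing the data, called 32 genes, 25 of them among the 35. The median standard error of a difference between kinds, 0.33 to 0.59, limits what could be detected.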
